A study of Homo sapiens with 4 samples.

Results

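Transcript levels of extracellular matrix genes in TPC1, a human cell line established from a papillary thyroid carcinoma, were compared between cells carrying an empty vector and cells overexpressing INAVA. Members were chosen by gene symbol: every collagen α chain, every laminin α, β or γ chain, and 16 matrix glycoproteins, proteoglycans, nidogens, fibrillins and lysyl oxidases listed by name, with antisense entries left out. Of the 13165 genes of the deposited table, 38 that met this rule are described, and THBS2, which the rule also names, had no row in the table and is not analysed here. Both groups were TPC1 cells kept in DMEM with 10% FBS, and both were made stable by 2 weeks in puromycin at 0.5 μg/mL. TPC1-Vector received the empty vector, and TPC1-INAVA (TPC1-C1orf106 in the sample labels) received the same vector with the full-length cDNA of INAVA, also called C1orf106. By the study's methods the constructs were delivered by retrovirus, so INAVA was driven by the vector and not by its own promoter, and the sources do not say whether the libraries of a group came from separate cultures. Each group had 2 libraries, but the authors deposited 1 value per gene and group, so the libraries were already combined, no spread between replicates can be given and no difference below has a test. The values are FPKM, fragment counts scaled to transcript length and to the mapped fragments of the library, which can therefore be compared between genes of a group. The number of reads behind them is not known, and neither is the counting error of weak genes.

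The extracellular matrix is the network of secreted proteins that surrounds cells. Collagens form fibrils, or the sheet-like network of the basement membrane in the case of type IV, and laminins are assembled from an α, a β and a γ chain and polymerise next to it. Nidogens and the heparan sulfate proteoglycans perlecan and agrin link both networks, glycoproteins such as fibronectin, tenascin C and the thrombospondins connect the matrix with integrins and growth factors, and lysyl oxidases crosslink collagen and elastin. Thyroid follicles rest on a basement membrane that carcinoma cells cross when they invade.

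A difference is given here as log2(FPKM + 0.5) in TPC1-INAVA minus that in TPC1-Vector, and a gene is called higher or lower when it differs by at least 1.5-fold on this scale (0.585 in log2). Genes were kept if the mean of both groups reached 0.5 FPKM, which left 12305 genes and 37 of the 38 members. The member left out was COL9A2, a chain of the fibril-associated collagen type IX, at 0.371 FPKM with the vector and 0.182 FPKM with INAVA. INAVA itself was at 7.96 FPKM with the vector and 123 FPKM with INAVA, in the direction of the labels.

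Of the 37 members kept, 3 were called higher in TPC1-INAVA, namely FN1, TNC and COL6A1, and 0 were called lower. Among all genes kept, 2.24% were called higher and 1.45% lower. With 3 of 37, the members called higher made up 8.11%. The median difference was 0.095 for the members and 0.0033 for all genes kept, and 23 members were above 0 and 14 below. The summed FPKM of all genes kept was far apart, at 2.03e+06 in TPC1-Vector and 466752 in TPC1-INAVA. Their differences ran from -21.6 to 7.84, and a value of -21.6 on this scale means that a single gene held most of the TPC1-Vector sum. The median difference of all genes kept, 0.0033, shows no such gap between the groups. Apart from LAMB3, whose difference of 0.0038 became -0.048 after quantile normalization, 36 of the 37 members kept their sign under the pseudocounts, filters and scalings tried. The members just short of a call were LOXL1 at -0.575, COL6A2 at 0.55 and AGRN at 0.55, so the count depends on where the threshold is drawn. In bulk RNA, fewer cells that transcribe a gene and less RNA per cell cannot be told apart.

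The members called higher all had a mean over 10 FPKM. Of the 19 members whose mean reached 10 FPKM, 3 were called higher and 0 lower, against 1.09% higher and 0.908% lower of the 6607 genes at that level. This cut was added after seeing the data. TNC, at 8.02 FPKM with the vector and 13.3 FPKM with INAVA, reached it only through its level with INAVA. The median difference of these 19 members was 0.14, with 14 above 0. The 18 members kept below 10 FPKM had a median of 0.0040, with 9 above 0 and 9 below. The same 7 genes, THBS1, FN1, LAMB3, SPARC, LAMC1, AGRN and LOXL2, held 73.9% of the summed FPKM of the members kept in TPC1-Vector and 74.3% in TPC1-INAVA.

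**Figure D1:**
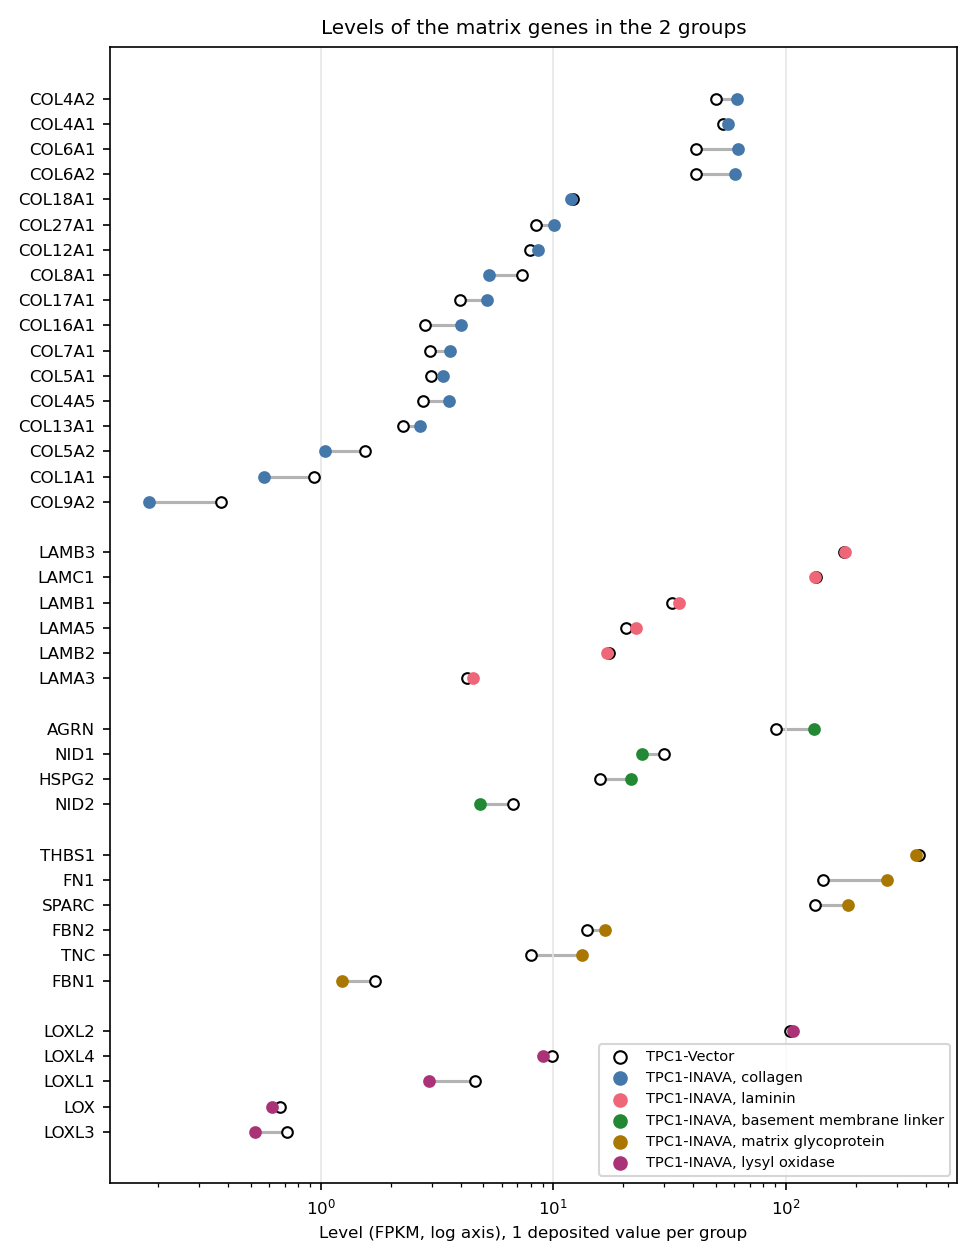
Level of each of the 38 matrix genes in FPKM on a log axis, 1 row per gene within its class, with the deposited value of TPC1-Vector as an open circle and that of TPC1-INAVA as a filled one. The levels run from COL9A2 under 1 FPKM to THBS1 at 372 and 364 FPKM, and FN1 and TNC show the longest lines to the right.

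The promoter sequences of FN1, TNC and COL6A2 are given because FN1 and TNC are called members and COL6A2 is the partner of the called COL6A1. The sequences are the 250 bases that end just before the RefSeq transcription start (GRCh38.p14), 5′ to 3′ on the strand of the gene. Other annotations start these genes inside the windows. TNC reaches 115118257 at its deposited position, and in GENCODE FN1 reaches 215436172 and COL6A2 begins at 46098097. Positions below count from the RefSeq start. Capitals mark TATAA, the core of the TATA box, and TGACGTCA, the cAMP response element.
FN1, chr2:215436069-215436318, minus strand: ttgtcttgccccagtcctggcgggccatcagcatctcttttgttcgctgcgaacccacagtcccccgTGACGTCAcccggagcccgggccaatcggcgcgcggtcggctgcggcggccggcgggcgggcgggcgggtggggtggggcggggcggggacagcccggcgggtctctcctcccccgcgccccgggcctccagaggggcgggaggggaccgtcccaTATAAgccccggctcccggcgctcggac
TNC, chr9:115118158-115118407, minus strand: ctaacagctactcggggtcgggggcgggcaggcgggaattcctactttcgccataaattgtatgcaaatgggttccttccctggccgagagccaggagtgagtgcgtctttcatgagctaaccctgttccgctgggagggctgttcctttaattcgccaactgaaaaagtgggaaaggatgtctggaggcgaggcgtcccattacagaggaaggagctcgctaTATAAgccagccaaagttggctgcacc
COL6A2, chr21:46097862-46098111, plus strand: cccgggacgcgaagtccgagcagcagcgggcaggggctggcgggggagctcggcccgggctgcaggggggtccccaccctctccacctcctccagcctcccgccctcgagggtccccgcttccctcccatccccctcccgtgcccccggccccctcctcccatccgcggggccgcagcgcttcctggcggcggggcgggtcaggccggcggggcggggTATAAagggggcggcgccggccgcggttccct

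Each of the 3 promoters holds TATAA on the strand of the gene shortly before the start, with its first base at position -28 in FN1, -27 in TNC and -32 in COL6A2. TATAA began between -40 and -20 on that strand in 4 of the 32 members with a promoter in the table (12.5%), the fourth being LAMA3, and in 3.91% of all 35116 promoters. Anywhere in the 250 bases and on either strand, TATAA was found in 7 of the 32 (21.9%) and in 18.9% of all promoters. The TGACGTCA of FN1 lies at -183 to -176, and FN1 was the 1 member of 32 with it (3.12%), against 1.65% of all promoters. The GC box GGGCGG, the site of SP1, was found on either strand in 25 of the 32 (78.1%) against 42.6% of all promoters, and in FN1 it occurs 6 times, in part with overlapping letters. GC content was higher as well, with a median of 69.6% in the members' promoters and 58.0% in all. The AP-1 site TGANTCA was found in 1 of the 32, LAMA3 (3.12% against 6.57%), CCAAT in 10 (31.2% against 32.0%) and the κB motif in 5 (15.6% against 6.88%), namely COL6A2, COL7A1, LAMB3, LOXL4 and NID1. The promoters of FN1 and TNC did not hold the κB motif or the AP-1 letters in this window. These are matches of letters, and binding was not measured. The 35116 promoters were not limited to 1 per gene or to genes of the deposited table, as those of the members were. The shares therefore compare unlike sets. AGRN, COL1A1, COL5A2, COL6A1, COL8A1 and LOXL2 had no match in the promoter table.

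Among the 6 glycoproteins, FN1 and TNC were called higher (33.3%, against 2.24% of all genes kept) and the median difference was 0.36. FN1 encodes fibronectin, a dimer that assembles into fibrils on cells through integrins and is a usual marker of mesenchymal change in thyroid carcinoma. FN1 (chromosome 2, 215360440 to 215436070, minus strand, GRCh38) was at 144 FPKM with the vector and 272 FPKM with INAVA, a difference of 0.92. Among the members it was the third highest in level in TPC1-Vector, after THBS1 and LAMB3, and came next to THBS1 in TPC1-INAVA, and 99.3% of all genes kept had a smaller difference. The gene has 46 exons in its longest coding transcript in GENCODE release 29 and 11 coding transcripts in the basic set, and the deposited values do not separate its splice forms.

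TNC, tenascin C, is a large hexameric glycoprotein that loosens cell adhesion to fibronectin and is produced in wounds and tumour stroma. TNC (chromosome 9, 115019576 to 115118257, minus strand) was at 8.02 FPKM with the vector and 13.3 FPKM with INAVA, a difference of 0.70. COL27A1, the nearest member on the same chromosome, ends 707 kb before TNC and was at 8.42 and 10.1 FPKM, a difference of 0.25.

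SPARC, a calcium-binding protein that binds collagen and modulates adhesion, was at 134 FPKM with the vector and 186 FPKM with INAVA, a difference of 0.47 that stayed under the threshold. THBS1, thrombospondin 1, an activator of latent TGF-β and an inhibitor of angiogenesis, had the highest level of all members and was almost level between the groups, at 372 and 364 FPKM (-0.029). The ratio of FN1 to THBS1 was thus 0.387 in TPC1-Vector and 0.747 in TPC1-INAVA. The fibrillins, which build microfibrils, lay on opposite sides of 0. FBN2 was at 14.0 and 16.6 FPKM (0.24), and FBN1 at 1.72 and 1.23 FPKM (-0.36).

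**Figure D2:**
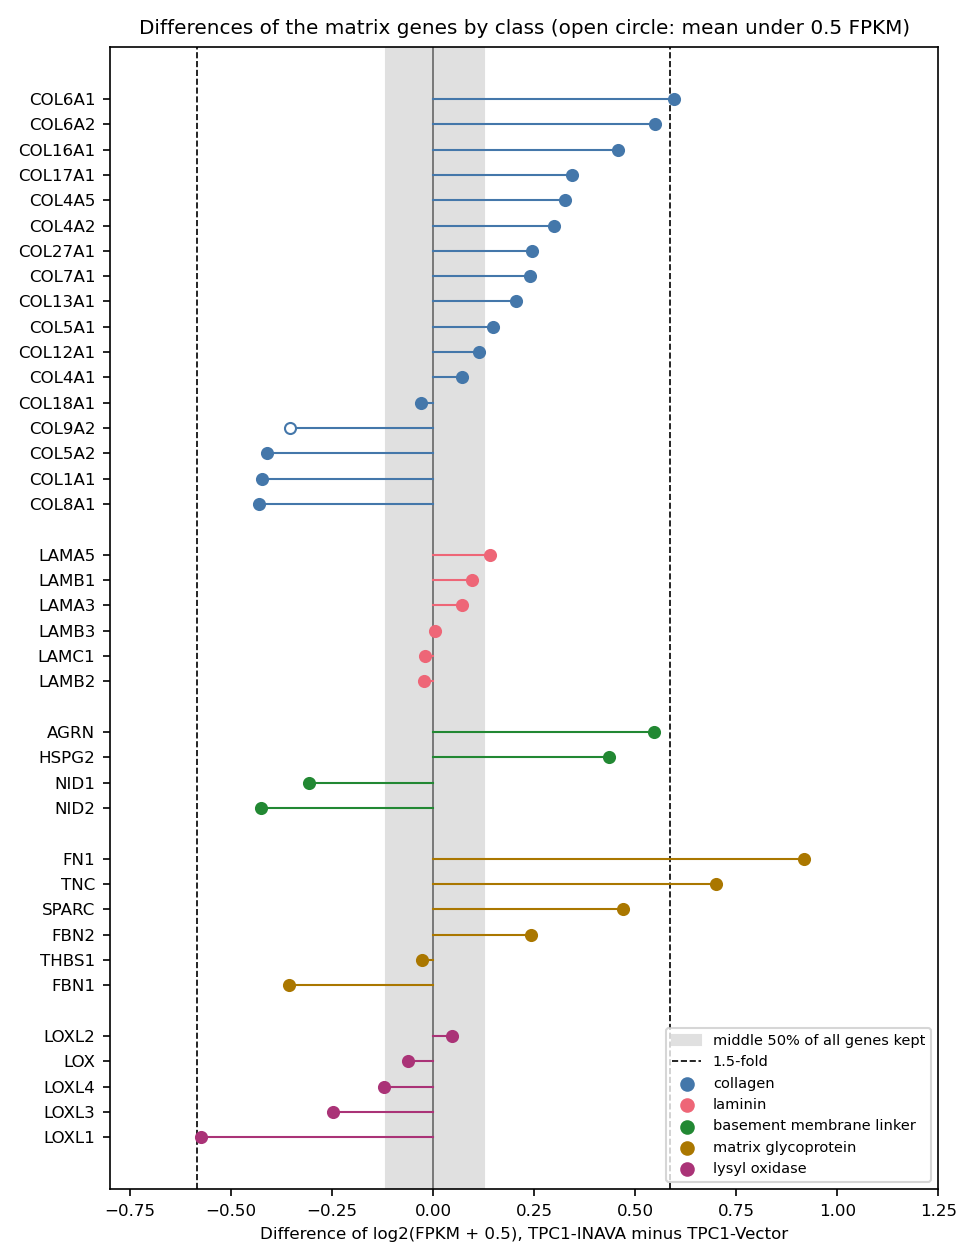
Difference of log2(FPKM + 0.5), TPC1-INAVA minus TPC1-Vector, for each matrix gene by class, with the middle 50% of all genes kept as a grey band, dashed lines at 1.5-fold and COL9A2, under 0.5 FPKM, as an open circle. FN1, TNC and COL6A1 lie beyond the upper line, the laminin chains lie in or next to the band, and 4 of the 5 lysyl oxidases lie below 0.

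The 6 laminin chains described were nearly level between the groups, with differences between -0.024 and 0.14, a median of 0.038 and 0 called. LAMB3 and LAMA3, a β and an α chain of the laminin in epithelial anchoring structures, were at 178 and 179 FPKM (0.0038) and at 4.26 and 4.50 FPKM (0.072). LAMB3 exceeded LAMA3 in level 41.8 times with the vector and 39.7 times with INAVA. LAMC1, the γ chain of most laminins, was at 135 and 134 FPKM (-0.020).

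The β chains LAMB1 and LAMB2, which pair with LAMC1, were at 32.4 and 34.6 FPKM (0.095) and at 17.4 and 17.1 FPKM (-0.024). LAMA5, the α chain of the laminins typical of mature epithelial basement membranes, was at 20.5 and 22.6 FPKM (0.14).

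Of the 16 collagen chains kept, 12 were above 0 and 4 below, and the median difference was 0.22. COL6A1 was called higher (6.25%, against 2.24% of all genes kept) and 0 were called lower (1.45% of all genes kept). Type VI collagen forms beaded filaments around cells. COL6A1 (chromosome 21, 45981749 to 46005049, plus strand, 35 exons) was at 41.2 FPKM with the vector and 62.4 FPKM with INAVA, a difference of 0.59 that was 0.56, under the threshold, after quantile normalization. COL6A2, whose chain combines with that of COL6A1, begins 93.0 kb after COL6A1 and was at 41.2 and 60.5 FPKM (0.55). The ratio of COL6A1 to COL6A2 was 0.999 in TPC1-Vector and 1.03 in TPC1-INAVA. Their levels and differences were nearly equal although they are on different sides of the threshold.

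The network collagens were led by COL4A1 and COL4A2, the main chains of the basement membrane, which are transcribed from opposite strands of chromosome 13. They overlap at their starts in GENCODE, where counting that ignored strand could not tell reads apart. Their deposited positions do not overlap, with COL4A1 ending at 110307157 and COL4A2 beginning at 110307284. COL4A1 was at 53.9 FPKM with the vector and 56.6 FPKM with INAVA (0.071), and COL4A2 at 50.1 and 61.8 FPKM (0.30). The X-linked COL4A5 was far weaker, at 2.75 and 3.57 FPKM (0.33). COL8A1, a short-chain network collagen of vessel and corneal membranes, went the other way, at 7.33 and 5.31 FPKM (-0.43).

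The fibrillar collagens were weak in these cells. COL27A1 was the strongest, and COL5A1 and COL5A2, which nucleate fibrils, were at 2.98 and 3.35 FPKM (0.15) and at 1.56 and 1.05 FPKM (-0.41). The ratio of COL5A1 to COL5A2, taken without the added 0.5, was 1.91 in TPC1-Vector and 3.20 in TPC1-INAVA. It rests on weak values, and the difference of COL5A2 was -0.53 with a pseudocount of 0.1. The position of COL5A1 also overlaps that of another gene, LOC101448202. COL1A1, the main chain of type I collagen and abundant in fibroblasts, was under 1 FPKM, at 0.937 and 0.571 FPKM (-0.42). No row was present for COL1A2 or COL3A1.

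Among the fibril-associated collagens, COL12A1 was at 7.94 and 8.63 FPKM (0.11) and COL16A1 at 2.80 and 4.03 FPKM (0.46). COL7A1, the anchoring fibril of stratified epithelia, was at 2.96 and 3.59 FPKM (0.24). The transmembrane collagens COL13A1 and COL17A1, the latter a hemidesmosome component, were at 2.25 and 2.67 FPKM (0.21) and at 3.97 and 5.18 FPKM (0.34). COL18A1, the source of endostatin, was level at 12.2 and 11.9 FPKM (-0.031).

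The 4 linkers of the basement membrane divided by family, with 0 called. The proteoglycans were above 0. AGRN, agrin, was at 90.5 FPKM with the vector and 132 FPKM with INAVA (0.55), and HSPG2, perlecan, at 15.9 and 21.7 FPKM (0.44). The nidogens, which bind laminin γ chains and type IV collagen, were below 0. NID1 was at 30.04 and 24.2 FPKM (-0.31), and NID2 at 6.69 and 4.85 FPKM (-0.43).

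Of the 5 lysyl oxidases, 4 were below 0, 0 were called and the median difference was -0.12. LOXL2, which acts on type IV collagen, was by far the most abundant, at 104 FPKM with the vector and 107 FPKM with INAVA (0.047). LOXL1, needed for elastic fibres, had the lowest difference of the 37 members kept, with levels of 4.60 and 2.92 FPKM (-0.575), and its position overlaps that of its antisense gene LOXL1-AS1, from which it cannot be separated if the counting ignored strand. LOXL4 was at 9.83 and 8.99 FPKM (-0.12). LOX and LOXL3 were under 1 FPKM in both groups, at 0.668 and 0.618 FPKM (-0.064) and at 0.714 and 0.521 FPKM (-0.25), and the position of LOXL3 overlaps 3 other genes.

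**Figure D3:**
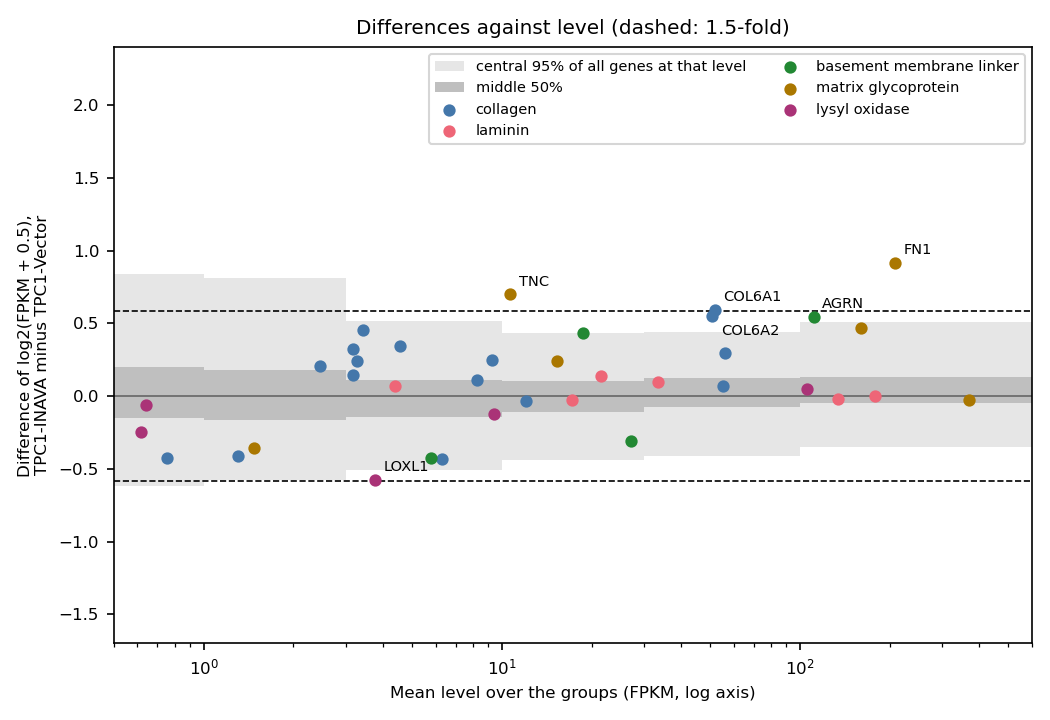
Difference of log2(FPKM + 0.5) against the mean level in FPKM (log axis) for the 37 matrix genes kept, with the central 95% and middle 50% of all genes of the same level range as light and dark bands. FN1, TNC, COL6A1, COL6A2, AGRN and, at the edge, HSPG2 lie above the central 95% and LOXL1 lies below it.

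Weak genes vary more, so each member was also placed among all genes of like level. Of the 782 genes whose mean reached 100 FPKM, the central 95% lay between -0.35 and 0.51, and FN1 and AGRN were above this range while the other 5 members there were within it. Of the 2163 genes from 30 to 100 FPKM, the range was -0.41 to 0.44, with COL6A1 and COL6A2 above it. Of the 3662 genes from 10 to 30 FPKM, it was -0.44 to 0.44, with TNC above it and HSPG2, at 0.4357 against 0.4356, at its edge. Of the 3112 genes from 3 to 10 FPKM, it was -0.51 to 0.52, with LOXL1 below it. Under 3 FPKM none of the 6 members lay outside. The ranges describe single genes in these combined values and are no test.

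Some stretches of chromosomes hold genes that differ together between these groups, so each member was set beside the median of the genes kept within 1 Mb on each side. The 3 members called higher had neighbours close to 0. The neighbour medians were -0.034 for FN1 (10 genes), -0.065 for TNC (8 genes) and -0.0062 for COL6A1 (13 genes).

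Among the members, 3 lie on the long arm of chromosome 10, where all neighbours were lower in TPC1-INAVA. COL17A1 had a difference of 0.34 beside a neighbour median of -0.28 (0 of 13 neighbours above 0). COL13A1 had 0.21 beside -0.36 (0 of 21), and LOXL4 had -0.12 beside -0.39 (0 of 18). COL17A1 and COL13A1 were thus above 0 among neighbours that were below, and relative to the neighbours COL17A1 was at 0.62 and LOXL4 at 0.27, above 0. On chromosome 20, LAMA5 had 0.14 beside a neighbour median of 0.32 (15 of 19 above 0), the highest neighbour median of the members, and relative to them it was at -0.18. The part of the neighbourhood in these values was not tested.

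**Figure D4:**
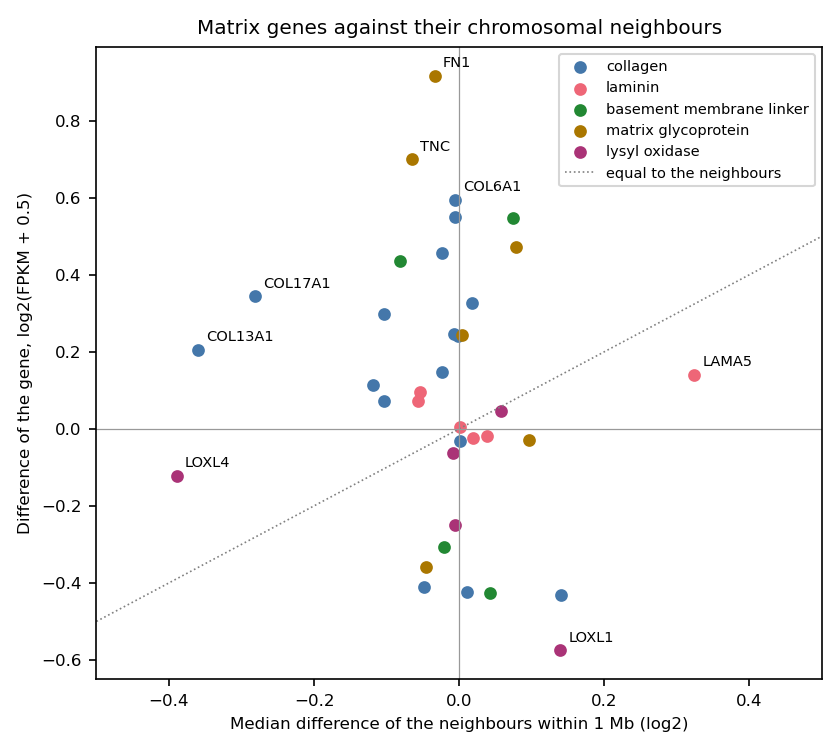
Difference of each matrix gene kept against the median difference of the genes within 1 Mb on each side, with a dotted line where both are equal. FN1, TNC and COL6A1 stand above neighbours near 0, COL13A1, COL17A1 and LOXL4 beside lower neighbours, and LAMA5 beside higher ones.

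Of the related lists that follow, genes not called, or called at a mean under 1 FPKM, were picked for mention after their values were seen. The enzymes and chaperones that make collagen did not differ by 1.5-fold. Of 29 such genes, 24 had a row and 23 were kept, 0 were called in either direction, 16 were above 0, and the median difference was 0.076. The largest value was that of PLOD3, a lysyl hydroxylase, at 10.8 and 15.2 FPKM (0.47). SERPINH1, the collagen chaperone, was at 88.4 and 77.5 FPKM (-0.19).

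Of 23 matrix receptors, 18 were kept, with 11 above 0, 7 below and a median of 0.11. DDR2, a collagen receptor kinase, was the 1 called higher (5.56%, against 2.24% of all genes kept), and 0 were called lower (1.45% of all genes kept). DDR2 had a mean under 1 FPKM (0.337 and 0.790 FPKM, difference 0.62). It passed the filter only through its level with INAVA, and without it 0 receptors were called higher. ITGB1, the β subunit shared by most collagen, laminin and fibronectin receptors, was at 504 and 573 FPKM (0.18), and ITGA5, its partner in the fibronectin receptor, at 32.0 and 41.0 FPKM (0.35). SDC4, a proteoglycan that acts with them on fibronectin, was at 93.4 and 136 FPKM (0.54). Of the other integrin subunits kept, ITGA2 (0.15), ITGA6 (0.13), ITGAV (0.10) and ITGB5 (0.11) lay above 0, and ITGA1, ITGA3 and ITGB3 below. ITGA1 had the lowest difference of the receptors, at 4.83 and 3.12 FPKM (-0.56). ITGB3 was at 85.8 and 75.3 FPKM (-0.19), and ITGA3 at 199 and 189 FPKM (-0.075).

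Of 39 other matrix genes, 23 had a row and 22 were kept, with 4 called higher (18.2%, against 2.24% of all genes kept) and 2 lower (1.45% of all genes kept) and a median of 0.20. TGFBI, a secreted adhesion protein induced by TGF-β, was at 4.41 and 12.3 FPKM (1.38), and the proteoglycan SPOCK1 at 6.09 and 15.4 FPKM (1.27). The list was drawn up with earlier results of these data known and is not independent evidence of its direction. The small proteoglycan BGN was at 3.85 and 6.37 FPKM (0.66). MFAP5, a microfibril protein, was at 0.178 and 0.824 FPKM (0.97) and passed the filter only through its level with INAVA, and without it 3 were called higher. The large proteoglycan VCAN was lower, at 92.1 and 58.0 FPKM (-0.66), as was the integrin ligand SPP1, osteopontin, at 126 and 77.3 FPKM (-0.70). With the median of the neighbours subtracted, VCAN was at -0.39 and BGN at 0.55, both short of a call.

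**Figure D5:**
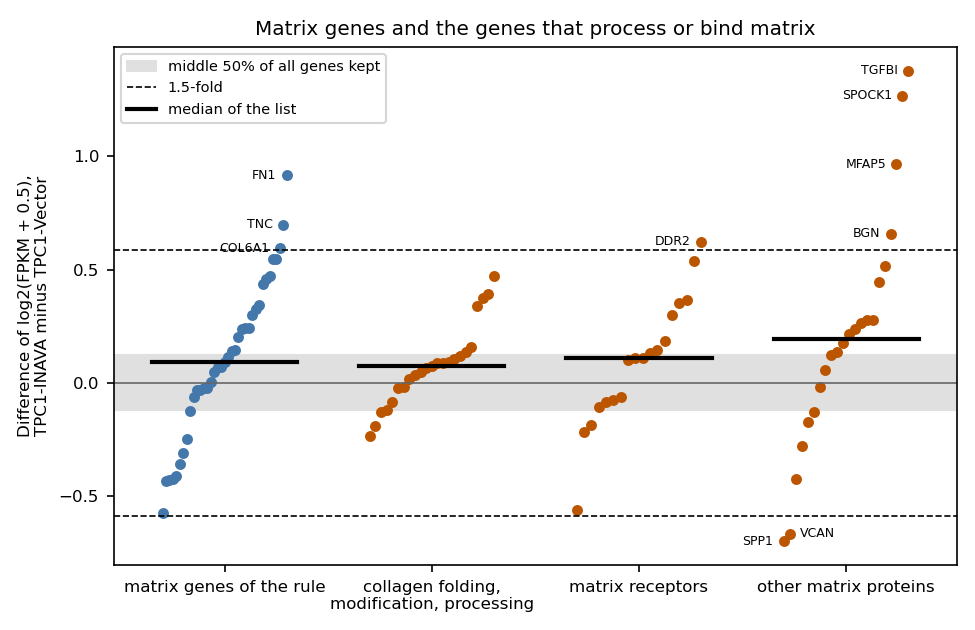
Difference of log2(FPKM + 0.5) of each gene kept, ordered within the matrix genes of the rule and 3 lists of related genes, with the median of each list as a bar, dashed lines at 1.5-fold and the middle 50% of all genes as a grey band. The list of collagen folding, modification and processing has 0 genes beyond the lines, and the other matrix proteins have 4 above and 2 below.

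Markers of other matrix-producing cells were weak or without a row. Of 5 fibroblast markers, PDGFRB was at 2.24 and 1.39 FPKM and LUM at 0.383 and 0.225 FPKM, and the others had no row. None of 3 endothelial markers had a row, and of 3 leukocyte markers only CD68 did, at 5.76 and 8.67 FPKM. Of 7 thyroid markers, the lineage factors PAX8 (60.1 and 55.7 FPKM) and FOXE1 (5.26 and 5.89 FPKM) had a row. Of 6 epithelial markers, EPCAM, CDH1 and KRT19 had no row. KRT7 was level at 1.97 and 2.01 FPKM, KRT8 was called lower at 23.4 and 10.5 FPKM (-1.12) and KRT18 called higher at 140 and 212 FPKM (0.59). KRT8 and KRT18 share a single position in the table, so how reads were divided between them is uncertain. The part of these markers in the differences of the matrix genes was not tested.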

How the data were processed

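RNA from TPC1-Vector and TPC1-C1orf106 (TPC1-INAVA) cells, 2 libraries per group, was sequenced on an Illumina instrument. FPKM values were deposited by the authors after combining the libraries of each group. Per the labels, their processing used CASAVA, Cufflinks 2.1.1, Cuffdiff and hg38, while the aligner and annotation are not given in the sources used here. The deposited columns with a log2 ratio, direction, p-value and q-value of the same comparison hold the results of the authors and were not used.

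Here, differences of log2(FPKM + 0.5) were computed for the 12305 of 13165 genes whose mean reached 0.5 FPKM, and described by counts and medians without a test. The members, lists and thresholds were chosen with earlier results of these data known. By the rule for named genes, members at a mean of 1 FPKM or more are given with both values, and from related lists the genes called at such a mean. The 4 members below it were named after their values were seen. In the table, 1 further gene that meets the rule is not reported here, though it stays in the counts over all genes. Depth per library is unknown. All 38 members overlapped the gene of the same name in GENCODE release 29 (GRCh38). Deposited starts were raised by 1 base. Promoters came from RefSeq (GRCh38.p14), with 32 of 38 members matched. The scripts were tested on simulated data. Python 3.11.15, numpy 2.4.6, pandas 2.3.3 and matplotlib 3.10.9 were used.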

Additional observations from a re-analysis of the deposited data

How the results depend on the processing

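No paired analysis was possible because the table has 1 value per group, and for the same reason no library could be left out in turn. The alternatives were pseudocounts of 0.1 and 1, no filter, a filter at a mean of 1 FPKM, median-of-ratios scaling, quantile normalization, a call at 2-fold and members without an overlapping gene. A filter at a mean of 10 FPKM and the subtraction of the neighbours' median were added after seeing the data. The 3 members called higher were 0 at 2-fold, 2 without COL6A1 after quantile normalization, and 4, with COL17A1, after subtraction of the neighbours. The 0 members called lower became 2 (LOXL1 and COL1A1) with a pseudocount of 0.1 and 1 (LOXL1) after that subtraction. The median of the members, 0.095, was 0.14 with the filter at 10 FPKM and 0.17 after the subtraction. The 1 matrix receptor called higher, DDR2, was 0 with a pseudocount of 1, with the filters at 1 and 10 FPKM and at 2-fold. The 0 receptors called lower became 1 (ITGA1) with a pseudocount of 0.1 and after the subtraction. Of the other matrix proteins, 4 called higher became 1 with the filter at 10 FPKM, 2 at 2-fold, 3 with the filter at 1 FPKM (without MFAP5) and 3 after the subtraction, which put BGN at 0.55, and 2 called lower became 0 at 2-fold and 1 after the subtraction, which put VCAN at -0.39. Among all genes kept, calls of lower numbered 179 and were 289 with a pseudocount of 0.1, and at 2-fold 75 were higher and 30 lower. None of the called members and of TGFBI, SPOCK1, BGN, VCAN and SPP1 changed sign under these alternatives, while the uncalled members LAMA5 (-0.18), LOXL2 (-0.011) and LOXL4 (0.27) did so after the subtraction and LAMB3 (-0.048) after quantile normalization. Pseudocounts and filters on low values act on weak genes by construction; no other cause was tested. Without depth, the error of members under 1 FPKM cannot be stated.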
